A study of Mus musculus with 5 samples.

Results

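The genes described here are 7 molecules through which blood vessel walls hold leukocytes and platelets or respond to inflammation: the selectins Selp and Sele, the immunoglobulin family members Vcam1, Icam1 and Icam2, the platelet-binding protein gene Vwf, and Lrg1. They were chosen by symbol, and all 7 were found among the 28692 gene identifiers of the droplet libraries. The study followed mouse kidneys through ureteric obstruction (UUO) and its reversal. Cells of C57/BL6 mice aged 8 weeks were collected after sham surgery (day 0), at 2 and 7 days of obstruction, and 7 days after reversal (experimental day 14). No genetic modification is named for any group. Each group was a single droplet library made from 3 pooled mice, after digestion on ice and sorting of live cells, so animals cannot be separated and no test between time points is possible. Intervals on levels, shares and folds are exact 95% intervals that cover counting error only; for a count of 0 the limit given is 3 counts.

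Leukocytes leave the blood in steps. Selectins, which bind sugars on leukocyte surface proteins, slow the passing cells; the integrins of the leukocyte then grip VCAM-1 and ICAM-1 on the endothelium. P-selectin, the product of Selp, and von Willebrand factor, the product of Vwf, are stored together in the secretory granules of endothelial cells called Weibel-Palade bodies, whereas E-selectin, the product of Sele, is made on demand after inflammatory stimulation. In the kidney, the fenestrated peritubular capillaries carry Plvap, a component of the fenestral diaphragm, and the glomerular capillaries carry Ehd3.

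Selp and Sele lie on chromosome 1, on the same strand and 57.6 kb apart in GRCm38, at chr1:164115264-164150026 and chr1:164048234-164057677. Their start regions are shown first because these neighbouring genes were, among the 7, each other's nearest in pattern of level, and those of Icam1 (chr9:21015985-21028817) and Lrg1 (chr17:56119678-56122001, minus strand) follow as the only others with a start region in the table used. The gene coordinates are from the GENCODE annotation of that build, and all 7 genes are annotated as protein coding. The sequences are from RefSeq (GRCm38.p6), which gave a start region for 4 of the 7 genes; each runs 5′ to 3′ on the gene's own strand, from 250 bases before to 50 bases after the RefSeq start, with matches to the motifs searched in capitals.

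Selp: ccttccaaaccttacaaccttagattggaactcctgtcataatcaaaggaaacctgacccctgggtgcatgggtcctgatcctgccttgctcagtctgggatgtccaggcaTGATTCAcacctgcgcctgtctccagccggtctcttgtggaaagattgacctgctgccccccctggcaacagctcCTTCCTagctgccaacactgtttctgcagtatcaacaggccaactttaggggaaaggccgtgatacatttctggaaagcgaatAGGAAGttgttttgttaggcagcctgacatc
Sele: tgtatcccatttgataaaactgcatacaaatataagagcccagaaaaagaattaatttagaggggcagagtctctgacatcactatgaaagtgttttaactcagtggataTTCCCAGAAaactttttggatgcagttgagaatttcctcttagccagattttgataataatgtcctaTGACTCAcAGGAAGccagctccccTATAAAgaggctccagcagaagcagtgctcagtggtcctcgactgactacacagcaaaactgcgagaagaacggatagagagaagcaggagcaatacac
Icam1: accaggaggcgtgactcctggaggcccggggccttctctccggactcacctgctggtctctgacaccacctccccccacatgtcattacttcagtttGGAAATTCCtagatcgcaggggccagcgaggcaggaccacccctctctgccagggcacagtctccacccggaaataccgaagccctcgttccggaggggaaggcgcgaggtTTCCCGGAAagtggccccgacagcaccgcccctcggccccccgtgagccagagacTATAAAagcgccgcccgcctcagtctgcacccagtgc
Lrg1: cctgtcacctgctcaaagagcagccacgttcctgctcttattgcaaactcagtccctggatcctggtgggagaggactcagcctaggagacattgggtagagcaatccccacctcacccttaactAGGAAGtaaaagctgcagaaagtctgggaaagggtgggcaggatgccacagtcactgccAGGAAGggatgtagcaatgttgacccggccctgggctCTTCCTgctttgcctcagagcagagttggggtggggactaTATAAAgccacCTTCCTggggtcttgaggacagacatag

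The windows are chr1:164115014-164115313 for Selp, chr1:164047984-164048283 for Sele, chr9:21015690-21015989 for Icam1 and chr17:56121897-56122196 for Lrg1. The RefSeq start is that of GENCODE for Selp and Sele, 45 bases upstream of it for Icam1 and 55 bases downstream for Lrg1, and motif positions count from the RefSeq start. Both strands were searched for an AP-1 motif (TGANTCA), a GAS motif bound by STAT factors (TTCNNNGAA), and an ETS motif (AGGAAG). The other motifs were that of GATA factors (AGATAA), the interferon-stimulated response element ISRE, the box bound by the TATA-binding protein (TATAAA), the kB consensus, and GGAANTTCC, a palindrome whose letters overlap those of the kB consensus. Selp and Sele each held 1 AP-1 match, from 139 to 133 and from 73 to 67 bases before the start, a motif present in 7.81% of 32851 mouse start regions of the same length, and at least 1 ETS match, present in 35.4%. Sele and Icam1 each held 1 GAS match, present in 8.3%, and Sele, Icam1 and Lrg1 each a TATA match, present in 13.6%. The TATA match lay from 49 to 44 bases before the RefSeq start in Sele. It lay after that start in the others, from 13 to 18 bases in Icam1 and from 11 to 16 in Lrg1. Icam1 held GGAANTTCC, found in 0.928% of start regions, from 153 to 145 bases before its start. Lrg1 held 4 ETS matches. None of the 4 windows matched the kB consensus, ISRE or GATA as searched, which were present in 4.51%, 3.44% and 11.2% of start regions. A match or its absence describes these letters only.

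After filtering, 3746 sham, 2159 day 2, 4287 day 7 and 3140 reversed cells were kept, and cells were assigned by panels of 10 marker genes. The endothelium comprised 222, 164, 486 and 371 cells in that order, with 612811 to 2131940 UMIs (unique molecular identifiers, each standing for 1 captured RNA molecule) and median depths of 2358.5 to 3795 UMIs per cell. All 10 panel genes, among them Pecam1 and Cdh5, were detected in the endothelium of every library, at a summed level of 8041 to 10112 UMIs per 1000000 UMIs of the class (CPM). Leukocyte panel genes reached 63.6, 334, 689 and 320 CPM in the same cells from sham to reversed, and rose with the leukocyte share of the libraries, which was 2.67%, 34.2%, 67.1% and 31.3%. The median mitochondrial share of the deposited cells was 40.6%, 16.2%, 3.00% and 14.0%. With the limit lowered from 50% to 20%, the sham endothelium still numbered 207 cells. The log2 ratio at day 2 over sham was then 3.85 in place of 3.92 for Lrg1. For Vcam1 it was 0.49 in place of 0.72, and for Icam1 -0.37 in place of -0.24. Any 2 libraries shared 16 to 39 cell barcodes, at most 0.974% of the smaller one.

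Over the whole endothelium the 7 genes did not move together. Lrg1 was low in sham and high in every later library. Selp, Sele and Vcam1 were highest after reversal. Icam2 was highest in sham, Icam1 moved little, and Vwf, rare in every library, was highest at day 2 and day 7. A gene was called higher or lower between libraries when log2 of the ratio, with 5 CPM added to each level, was at least 1 or at most -1 and the libraries held at least 10 UMIs of it together. By this rule 2 of the 5 members with enough UMIs were higher at day 2 than in sham (Lrg1 and Vwf), against 4.39% of all genes. The 8 arterial markers moved in the same cells, from 1521 CPM in sham to 2622 at day 2, 1246 at day 7 and 1102 after reversal, and their part in these calls was not tested. In the pooled endothelium no member was called between day 2 and day 7, where 3.87% of genes were higher and 2.11% lower. After reversal 3 of 7 were higher than at day 7 (Selp, Sele and Vcam1), against 1.36% of genes, and 4 of 7 were higher than in sham (those 3 and Lrg1), against 6.23%. Vessel markers also moved between day 7 and reversal, the venous Nr2f2 and Ackr1 from a sum of 90.1 to 139 CPM and the 3 peritubular markers from 1801 to 734, and their part in these calls was not tested. None was called lower in these comparisons, where 3.6% (day 2 over sham), 1.34% (reversed over day 7) and 1.97% (reversed over sham) of genes were. The calls of Sele and Vcam1 after reversal over day 7 ended when every cell was thinned to 1000 UMIs, at log2 ratios of 0.73 and 0.57, while Selp stayed at 1.73. That of Sele also ended with a pseudocount of 20 CPM (0.71), and that of Vcam1 with each cell weighted equally (0.90). The call of Sele over sham ended with that pseudocount too (0.90).

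**Figure D1:**
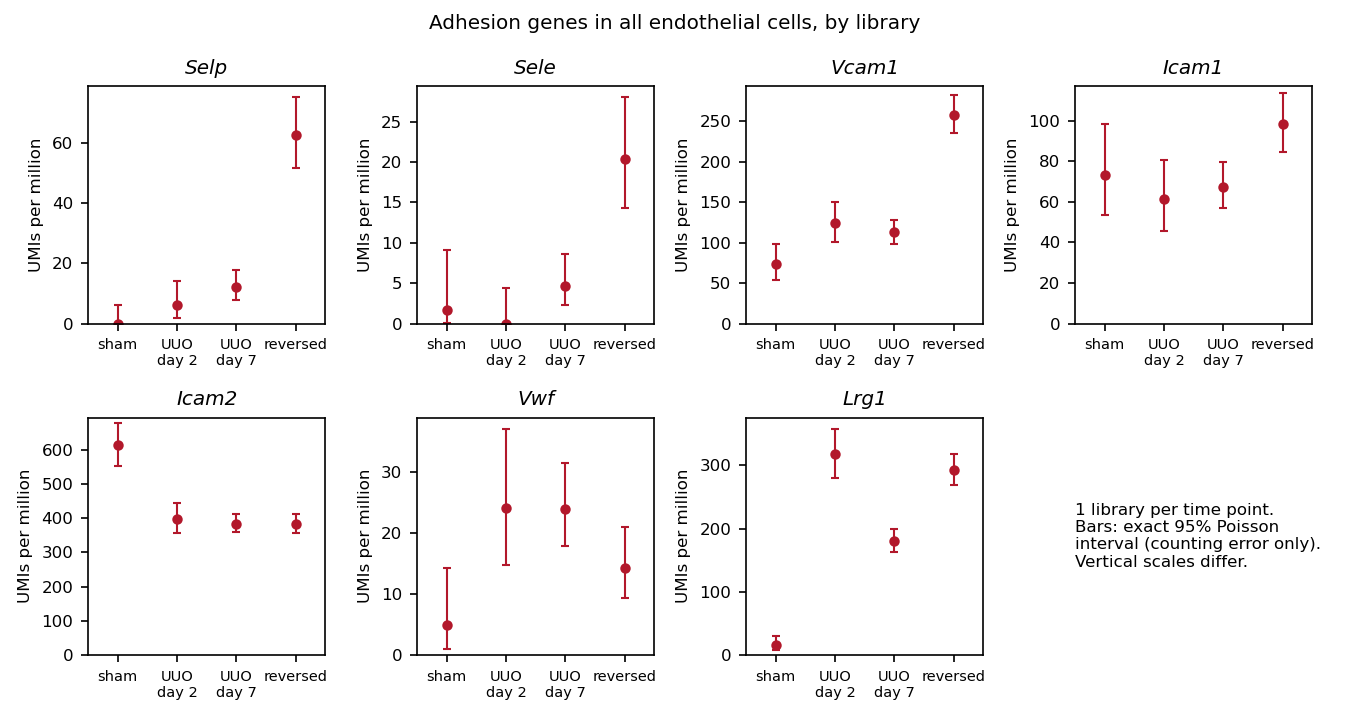
Level of each adhesion gene in all endothelial cells of each library, in CPM, with exact 95% Poisson intervals; the vertical scales differ between panels. Selp is at 62.6 and Vcam1 at 258 in the reversed library, Lrg1 is at 16.3 in sham and at 181 or above in the other libraries, and Icam2 is highest in sham at 614.

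Selp encodes P-selectin, the receptor that first tethers leukocytes and platelets. In the endothelium it had 0 UMIs in sham, 5 at day 2, 26 at day 7 and 114 after reversal, which are 0, 6.01, 12.2 and 62.6 CPM. The reversed library stood above the rest, and the intervals of the 2 obstructed libraries overlapped. The level after reversal was 5.13-fold that at day 7 (3.33 to 8.19) and at least 12.8-fold higher than in sham, taking the sham level at its floor of 3 UMIs. None of the 222 sham cells had a Selp UMI, which by the limit of 3 counts allows up to 1.35% of cells with one and limits detection at this depth and not expression; 2.44%, 3.29% and 9.43% of endothelial cells had one in the later libraries. When every cell was thinned to 1000 UMIs the share was 1.03% at day 7 (0.335 to 2.38) and 2.97% after reversal (1.49 to 5.24), with overlapping intervals. The positive cells held 1.62 UMIs each on average at day 7 and 3.26 after reversal, where 3 of the 35 cells held 37.7% of the UMIs. Outside the endothelium Selp was nearly absent: in the reversed library it had 0 UMIs in 983 leukocytes and in 29 injured tubule cells, and 1 in 826 other tubule cells whose median depth, 6152 UMIs, exceeded that of the endothelium.

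Platelets also carry Selp RNA, so their markers were read in the same cells. Of the 6 platelet and megakaryocyte markers, 4 to 5 had UMIs in the endothelium of each library, and their summed level was 31.0 CPM in sham, 135 at day 2, 54.9 at day 7 and 39.5 after reversal. The part of platelet RNA in the Selp levels was not tested. In the reversed library Gp1ba had no UMI in any endothelial cell, Gp9 and Gp1bb had none in the 35 cells with Selp but were in only 0.298% and 1.79% of the rest, and Pf4 was found in 5.71% of them and in 5.95% of the cells without Selp. Itga2b was found in 14.3% (4.81 to 30.3) and 4.17% (2.30 to 6.89). Over the 6 markers, 2 were more frequent in the cells with Selp, 3 were less frequent and 1 had no UMI. The intervals overlapped for all those with UMIs.

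Sele encodes E-selectin, which supports slow rolling. It had 1, 0, 10 and 37 UMIs, giving 1.63, 0, 4.69 and 20.3 CPM from sham to reversed. Only the reversed library stood clear of the others, at 4.33-fold the day 7 level (2.11 to 9.77). This level rested on 11 cells, and 3 of them held 59.5% of the UMIs. Thinned to 1000 UMIs, 3 cells were positive at day 7 and 3 after reversal, too few to show a difference. Among 983 leukocytes and 826 other tubule cells of the reversed library there was 1 Sele UMI in all.

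In the reversed library the selectins tended to be found in the same cells. After reversal 7 of the 35 cells with Selp also had Sele, where the product of the shares gives 1.04 cells; the exact interval of that share was 8.44% to 36.9%, against 1.19% of the other endothelial cells (0.325 to 3.02). Selp cells were deeper, at a median of 5268 UMIs against 3712, which was not corrected for. Vcam1 was found in 68.6% of the cells with Selp (50.7 to 83.1) and in 21.7% of those without (17.4 to 26.5). Lrg1 was found in 88.6% (73.3 to 96.8) and 33.9% (28.9 to 39.3), and all 11 cells with Sele had Lrg1. Icam1 was also more frequent in Selp cells, at 54.3% (36.6 to 71.2) against 23.2% (18.8 to 28.1). Icam2, by contrast, was found in 62.9% (44.9 to 78.5) and 76.8% (71.9 to 81.2), and Vwf in 2.86% and 3.87%, with overlapping intervals for both. At day 7, where 16 cells had Selp, Vwf was found in 4 of them (7.27% to 52.4%) and in 4.89% of the others (3.13 to 7.25), intervals that barely missed overlapping. Vcam1 and Lrg1 were more frequent in the Selp cells there too, at 56.25% (29.9 to 80.2) against 19.4% (15.9 to 23.2) and 62.5% (35.4 to 84.8) against 28.9% (24.9 to 33.3). Sele, in 1 of the 16 (0.158% to 30.2%) and 1.28% of the others (0.470 to 2.76), had overlapping intervals. So did Icam1, at 43.75% (19.8 to 70.1) and 18.9% (15.5 to 22.8). The differences between the libraries were not tested.

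After reversal the cells with Selp also differed in vessel type markers. Nr2f2, a transcription factor of veins, was found in 68.6% of them (50.7 to 83.1) and in 28.3% of the other endothelial cells (23.5 to 33.4). Plvap was found in 97.1% and 64.3%. Of the 3 peritubular markers 2 were more frequent in the Selp cells and 1 less frequent, with overlapping intervals. All 8 glomerular markers were less frequent, also with overlapping intervals. At day 7 all 3 peritubular markers and 7 of the 8 glomerular ones were less frequent in the Selp cells. In the reversed library Efnb2, an arterial ligand, was less frequent in the Selp cells, at 17.1% (6.56 to 33.7) against 44.9% (39.5 to 50.4). So was the arterial connexin Gja4, at 5.71% (at most 19.2) against 26.5% (21.8 to 31.5). The difference in depth between these cells was not corrected for here either. Of 5 lymphatic markers, Prox1, Lyve1, Pdpn and Ccl21a were not found in the cells with Selp but were in only 0.298% to 2.08% of the rest, so 35 cells could not show a difference, and Flt4 was found in 54.3% (36.6 to 71.2) against 31.5% (26.6 to 36.8). Ackr1, another marker of veins, was found in 2.86% and 0.298%.

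**Figure D2:**
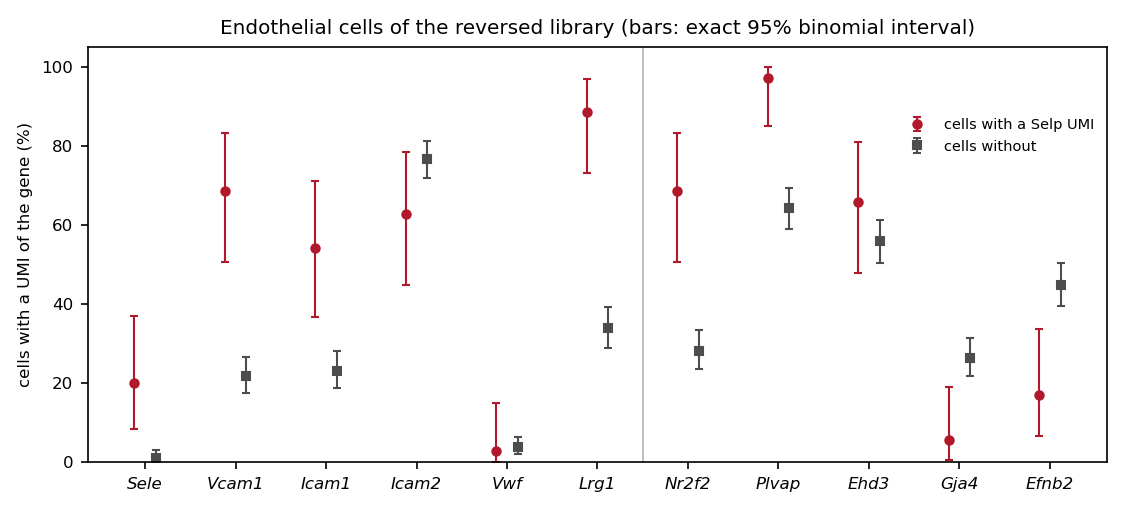
Share of endothelial cells of the reversed library with a UMI of each gene, in percent with exact 95% binomial intervals, for the 35 cells with a Selp UMI (circles) and the 336 without (squares); adhesion genes are left of the line and vessel markers right of it. Sele, Vcam1, Icam1, Lrg1, Nr2f2 and Plvap are more frequent in cells with Selp, and Gja4 and Efnb2 less frequent.

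Vcam1 encodes the ligand of the integrin alpha4 beta1 carried by monocytes and lymphocytes. Its endothelial level was 73.4 CPM in sham, 124 at day 2, 113 at day 7 and 258 after reversal, from 45, 103, 240 and 469 UMIs. The day 2 and day 7 intervals overlapped, and the reversed level was 2.29-fold that at day 7 (1.95 to 2.68) and 3.51-fold that in sham (2.58 to 4.88). Thinned to 1000 UMIs, the share of endothelial cells with Vcam1 was 10.1% at day 7 (7.55 to 13.1) and 13.7% after reversal (10.4 to 17.7). The log2 ratio of the levels was 0.57 in these thinned cells. Before thinning, 100 of 486 cells at day 7 and 97 of 371 after reversal had Vcam1, with 2.40 and 4.84 UMIs per positive cell. The 3 highest cells held 21.7% of the Vcam1 UMIs of the reversed library.

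Icam1 encodes the ligand of the leukocyte integrins LFA-1 and Mac-1. Its level was 73.4, 61.3, 67.5 and 98.3 CPM from sham to reversed, so that the intervals of the first 3 libraries overlapped. The reversed library was 1.46-fold above day 7 (1.16 to 1.83) and 1.34-fold above sham (0.961 to 1.90), both short of a call, and both directions turned when cells were thinned to 1000 UMIs, at log2 ratios of -0.22 against 0.51 and -0.10 against 0.40. Icam2, a constitutive ligand of LFA-1 on resting endothelium, was the most abundant of the 7 by UMI count and took a different course, at 614, 399, 385 and 384 CPM. It was 0.651 of the sham level at day 2 (0.560 to 0.756) and 0.627 of it after reversal (0.552 to 0.712), and the 3 later libraries overlapped. The 8 glomerular markers of the same cells summed to 3918, 2712, 1924 and 1759 CPM, and cells with Ehd3 and no Plvap went from 41.4% of the endothelium in sham to 25.3% after reversal; their part in the Icam2 level was not tested. By gate, the level after reversal was 0.926 of sham in the Plvap cells (0.694 to 1.25), 0.648 in the Ehd3 cells (0.530 to 0.794) and 0.523 in the cells with both (0.409 to 0.673). Since 3′ UMIs are counted per molecule and not per base, levels of different genes can be set side by side only as captured molecules.

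Vwf encodes the carrier of clotting factor VIII, which also catches platelets. It was rare: 3, 20, 51 and 26 UMIs gave 4.90, 24.1, 23.9 and 14.3 CPM. Day 2 was 4.91-fold sham (1.46 to 25.8), and the call rested on 20 UMIs in 10 cells and ended with a pseudocount of 20 CPM (log2 ratio 0.82). At day 7 5.56% of endothelial cells had a Vwf UMI (3.69 to 7.98) and so did 5.70% of leukocytes (4.88 to 6.61), which were deeper, at a median of 5914 against 3476 UMIs; thinned to 1000 UMIs the shares were 1.65% and 0.973%, with overlapping intervals. By level the day 7 endothelium (17.8 to 31.5 CPM) stood above leukocytes, at 9.92 CPM (8.56 to 11.4), and other tubule cells, at 3.48 CPM (at most 6.86). At day 7 all 8 arterial markers were more frequent in cells with Vwf than in the rest, 5 of them with intervals that did not overlap; after reversal, with 14 Vwf cells, it was 8 and 3. Leukocyte panel genes were also more frequent in them, 9 of 10 at day 7 (2 with intervals apart) and 8 of 10 after reversal (1 apart), and their part in the Vwf level was not tested. The Vwf cells were deeper, which was not corrected for. At day 7 Fbln5, an elastic fibre protein, was found in 59.3% of the 27 cells with Vwf (38.8 to 77.6) and in 18.1% of the rest (14.7 to 21.9), and the connexin Gja5 in 37.0% (19.4 to 57.6) and 6.97% (4.82 to 9.70), with median depths of 4904 and 3444 UMIs.

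Lrg1 encodes a secreted leucine-rich glycoprotein that is induced by inflammatory cytokines and modifies TGF-beta signalling in endothelium. It had the largest difference of the 7 between sham and day 2, with 10, 264, 385 and 533 UMIs, or 16.3, 317, 181 and 293 CPM. Day 2 was 19.5-fold sham (10.4 to 41.0) and the reversed library 17.9-fold (9.68 to 37.6). Day 7 lay below both, at 0.569 of day 2 (0.485 to 0.668). The thinned share of positive cells followed the same order, at 1.35%, 18.9%, 12.8% and 18.3%. Neutrophils carry Lrg1 as well. Leukocytes with at least 3 of 6 neutrophil markers had 129 CPM of Lrg1 at day 2, 95.2 at day 7 and 155 after reversal, against 44.1, 16.1 and 5.17 in the other leukocytes. Each of these was below the endothelial level of the same library. Neutrophil markers in the endothelium summed to 8.16, 141, 186 and 51.6 CPM with Ly6g at 0 in every library, and their part in the Lrg1 levels was not tested.

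Endothelial cells were next split by the gate genes. Cells with Plvap and no Ehd3 numbered 57, 57, 193 and 133 from sham to reversed, and cells with Ehd3 and no Plvap 92, 51, 125 and 94. A further 48, 28, 135 and 117 had both, and 25, 28, 33 and 27 neither. The 8 glomerular markers summed to 4471 to 7533 CPM in the Ehd3 cells and 443 to 994 in the Plvap cells, and the 3 peritubular markers to 15.8 to 232 and 1023 to 2175 CPM, with Dnase1l3 at 0 in the Plvap cells of 3 of 4 libraries. The Plvap cells also held arterial markers, at 2073, 3673, 1164 and 1291 CPM against 906, 1148, 1076 and 1011 in the Ehd3 cells, so they are called here by the gate gene and not as peritubular capillaries alone. Because each library holds both gates, the 4 libraries served as replicates, with library as a block, in edgeR's quasi-likelihood test with Benjamini-Hochberg adjustment over 5488 genes. Libraries pooled from different mice are the only replication, and each is also a different condition. With library as a block, the p-values measure how much the difference between gates varied across these 4 libraries. A gate difference that depends on the condition therefore counts as spread. Of the 7 members 4 passed the filter on low counts. Lrg1 was called higher in the Plvap cells and Icam1 and Icam2 were not called, where 6.89% of genes were higher and 5.45% lower, 12.3% in all. Vcam1 passed the filter through the Plvap sums, 4 of which reached it against 1 of the Ehd3 sums. A gene that enters only through the group where it is high has to differ. Here and in the later contrasts such a gene is therefore described by its values, with no p-value, standard error or call.

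Vcam1 was higher on the Plvap side of this split in every library. It stood at 98.7, 228, 184 and 275 CPM in the Plvap cells and at 0, 22.1, 11.5 and 31.8 CPM in the Ehd3 cells, from sham to reversed. The groups did not overlap, and Plvap cells were higher in 4 of 4 libraries. The log2 fold change was 3.62, and 2.42 when doublets were not removed. None of 92 sham Ehd3 cells had a Vcam1 UMI, which by the limit of 3 counts allows up to 3.26% of cells with one. From day 7 to reversal Vcam1 went from 184 to 275 CPM in the Plvap cells (fold interval 1.19 to 1.89), short of a call, and from 118 to 399 CPM in the cells with both gate genes, 3.38-fold (2.62 to 4.40). In the Ehd3 cells 6 and 14 UMIs gave 2.76-fold, a log2 ratio of 1.16, with an interval that includes 1 (0.996 to 8.76), and the direction turned in thinned cells.

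Lrg1 was higher in the Plvap cells of the 3 later libraries, and sham held too few UMIs to compare. Plvap cells had 14.1, 448, 209 and 354 CPM, and Ehd3 cells 23.7, 283, 84.5 and 52.3 CPM. In sham the intervals overlapped, at 2 and 6 UMIs. The log2 fold change over all 4 libraries was 1.49 ± 0.28 (± standard error, edgeR adjusted p = 0.00187), with Plvap cells higher in 3 of 4. The call was lost without library as a block (adjusted p = 0.301). Both gates were higher at day 2 than in sham, 31.8-fold in the Plvap cells from a sham count of 2 UMIs (8.60 to 265) and 11.9-fold in the Ehd3 cells (5.18 to 33.7). Day 7 lay below day 2 in both, at 0.466 of it in the Plvap cells (0.366 to 0.594) and 0.299 in the Ehd3 cells (0.199 to 0.446). From day 7 to reversal the levels went apart: Plvap cells were at 1.70-fold (1.38 to 2.09) and Ehd3 cells at 0.618-fold (0.356 to 1.05), a difference that has no replicate and was not tested.

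**Figure D3:**
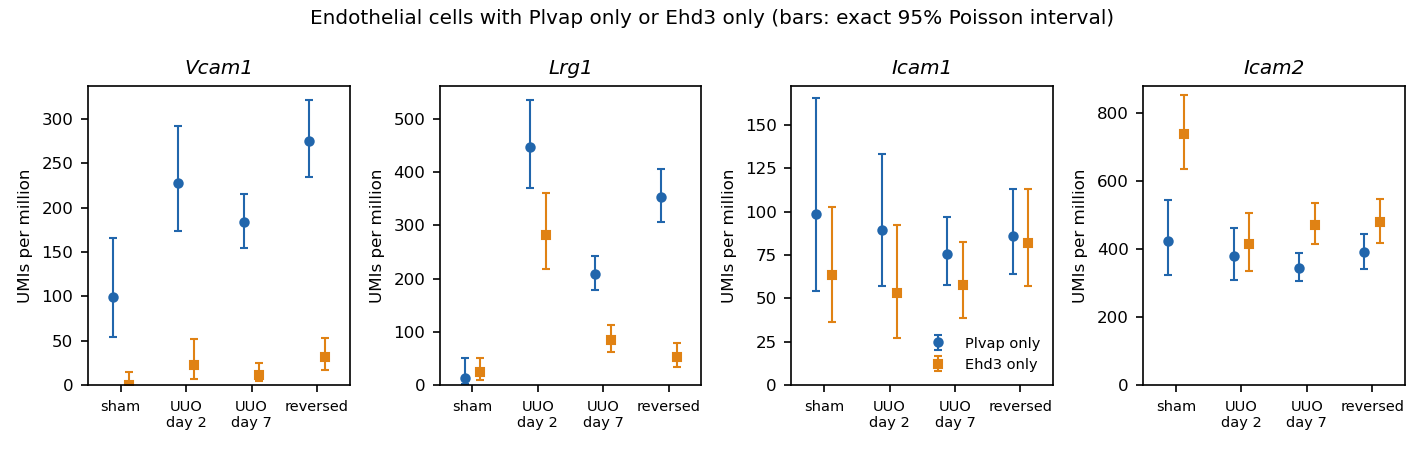
Level of Vcam1, Lrg1, Icam1 and Icam2 in endothelial cells with Plvap only (circles) and with Ehd3 only (squares) in each library, in CPM with exact 95% Poisson intervals. Vcam1 is at 98.7 or above in the Plvap cells and at 31.8 or below in the Ehd3 cells of every library, and Lrg1 separates the gates from day 2 on.

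Icam1 did not pass between the gates. Its levels were 98.7, 89.6, 75.4 and 85.9 CPM in Plvap cells and 63.3, 53.0, 57.6 and 81.8 CPM in Ehd3 cells, higher in Plvap cells in 4 of 4 libraries (log2 fold change 0.46 ± 0.21, edgeR adjusted p = 0.187). When cells with both gate genes were given to the gene with more UMIs, an alternative added after seeing the data, it passed at 0.81 ± 0.18 (adjusted p = 0.00839). Icam2 was at 423, 381, 346 and 392 CPM in Plvap cells and 739, 415, 472 and 479 CPM in Ehd3 cells (log2 fold change -0.33 ± 0.13, adjusted p = 0.137). The sham Ehd3 cells were the only sum far above the rest.

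The selectins and Vwf held too few UMIs for the filter of this test. Selp had 0, 0, 15 and 45 UMIs in Plvap cells and 0, 1, 1 and 0 in Ehd3 cells, or 77.3 CPM in the Plvap cells after reversal, where 0 of 94 Ehd3 cells had a UMI. With every gene of at least 1 UMI kept, an alternative setting, its log2 fold change was 4.18. It was higher in Plvap cells in only 2 of 4 libraries, at 0 against 1 UMI at day 2 and 0 in both in sham. Under that setting Vwf was at 1.43 and Sele at 2.21. These are given as values with no p-value or standard error, because that setting also admits genes whose UMIs lie almost wholly in one group. With the filter kept and sham left out, the log2 fold change of Vwf was 1.32. Sele had 19 UMIs in 4 Plvap cells and 1 in the Ehd3 cells after reversal. Cells with both gate genes held 23 of the 35 Selp cells and 97.2 CPM in that library, with 55 of these 117 cells having a single Ehd3 UMI. Of the 4 endothelial gate groups of the reversed library they also had the highest Vcam1 and Lrg1, at 399 and 402 CPM, and the highest median depth, 5104 UMIs.

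In cells with neither gate gene Vcam1 and Icam1 were below the Plvap cells of each library, and both are given as values, since 2 and 0 of the 4 sums of these cells reached the count filter against 4 of the Plvap sums. Vcam1 was at 32.0, 95.8, 61.4 and 161 CPM in them from sham to reversed, with a log2 fold change of -1.11 against the Plvap cells. Icam1 was at 32.0, 23.9, 34.1 and 30.2 CPM, with a log2 fold change of -1.40. These cells also differed in other markers: the 8 arterial markers summed to 3902, 3864, 3138 and 4142 CPM, against the 2073, 3673, 1164 and 1291 of the Plvap cells, and the 10 endothelial panel genes to 5662, 5189, 5301 and 6904 against 8038, 7446, 8135 and 7842. Stromal panel genes were at 0 in them except at day 7, at 825 CPM; the part of these differences in both levels was not tested. Of 2558 genes 3.21% were lower and 3.28% higher, 6.49% in all. These cells numbered 25 to 33 a library. Of the 12 other adhesion and junction genes 7 were tested, with a median log2 fold change of -0.19 against 0.04 for all genes tested. Cldn5, also an arterial marker, was higher in the cells with neither gate gene (1.21 ± 0.24, edgeR adjusted p = 0.00322, in 3 of 4 libraries), and Cd34, a surface sialomucin, was lower (-0.66 ± 0.18, adjusted p = 0.0237, in 4 of 4 libraries). Jam3, a junctional adhesion molecule, passed the filter through the Plvap sums and was at 32.0, 71.8, 34.1 and 70.5 CPM against 141, 123, 111 and 175 in the Plvap cells. Lrg1 (-0.57 ± 0.23, adjusted p = 0.167) and Icam2 (0.19 ± 0.18, adjusted p = 0.672) were not called.

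Injured tubule cells were those with a UMI of Havcr1, which encodes the injury marker KIM-1, or of Krt20. There were 3, 114, 69 and 29 of them, and 1882, 621, 300 and 826 other tubule cells; 58 of 114, 29 of 69 and 15 of 29 rested on 1 UMI of these genes. In the injured cells Vcam1 was at 33.7 CPM at day 2, 571 at day 7 and 324 after reversal, from 39, 438 and 91 UMIs. Day 7 was 17.0-fold day 2 (12.2 to 24.2), and the reversed level was 0.567 of day 7 (0.448 to 0.713). Vcam1 was found in 8 of 114, 31 of 69 and 12 of 29 injured cells, and the 3 highest cells held 82.1%, 39.3% and 70.3% of the UMIs, so a few cells carried much of each level. In the other tubule cells it was at 2.09, 23.0, 23.5 and 40.7 CPM from sham to reversed.

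The sham library has too few injured cells to enter the test, so injured and other tubule cells were compared over 3 libraries, where 0.594% of 10271 genes were higher in the injured cells and 0.925% lower. In either direction 1.52% were called, and neither Vcam1 nor Icam1 was. For Vcam1 the log2 fold change was 2.74 ± 0.61 (edgeR adjusted p = 0.0758, higher in 3 of 3 libraries). It passed when injured cells had to hold at least 2 UMIs of the gate genes (3.36 ± 0.61, adjusted p = 0.0274). It also passed without the day 2 library (3.63 ± 0.44, 0.0258) and without the day 7 library (1.82 ± 0.26, 2.42e-09). The last pair rests on 2 libraries each, and its p-values are not relied on. With no filter on low counts Vcam1 and Icam1 both passed (8.56e-34 and 0.00301). Those p-values are not relied on either, given how far that of Vcam1 lies from the one with the filter. Icam1 was at 43.2, 82.1 and 60.5 CPM in injured cells against 29.7, 43.1 and 22.7 in the others (0.85 ± 0.18, adjusted p = 0.0712). Lrg1, given as values because 3 injured and 2 other sums reached the filter, was at 29.4, 26.1 and 14.2 CPM against 17.6, 13.5 and 4.74. Icam2 had 1, 8 and 2 UMIs in the injured cells. Other tubule cells of sham held 1.96 CPM of Icam1 and 1.70 of Lrg1, and day 2 was 15.1-fold (8.89 to 27.7) and 10.4-fold (5.76 to 20.2) above them. Sham tubule cells stood apart in mitochondrial content, since a limit of 20% kept 204 of the 1882 and 330 of the 621 of day 2, and in scaling, with TMM factors of 0.706 in sham and 1.06 at day 2. On the log2 scale of the calls, Icam1 was at 2.32, at 2.45 under that limit and at 2.09 with TMM; Lrg1 was at 1.76, 1.77 and 1.55, and at 0.79 with a pseudocount of 20 CPM. For Vcam1 they were 1.98, 1.10 and 1.75, and 0.96 with that pseudocount. Leukocyte panel genes summed to 23.1, 203, 440 and 213 CPM in the other tubule cells from sham to reversed, and to 171, 437 and 228 in the injured cells from day 2 on; their part in these levels was not tested.

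Set against the injured tubule over the same 3 libraries, the endothelium had more Lrg1 (log2 fold change 3.08 ± 0.24, edgeR adjusted p = 3.98e-06), higher in 3 of 3 libraries. In this comparison 23.2% of 9447 genes were higher in the endothelium and 22% lower, 45.3% in all. Icam2 and Vwf passed the count filter through the endothelium and are given as values: Icam2 had 332, 820 and 700 UMIs in the endothelium and 1, 8 and 2 in the injured cells, and Vwf 20, 51 and 26 against 0, 1 and 0. Vcam1 and Icam1 were not called. Vcam1 was higher in the endothelium at day 2 (124 against 33.7 CPM) and lower at day 7 (113 against 571 CPM) and after reversal (258 against 324 CPM). Its log2 fold change was -0.71 ± 0.56 (edgeR adjusted p = 0.337). Without the day 2 library it was -1.55 ± 0.19 (2.51e-14, over 2 libraries), and with no filter -0.61 ± 0.20 (0.0106). Neither of the last 2 p-values is relied on. Icam1 was higher in the endothelium at day 2 and after reversal and lower at day 7 (0.00 ± 0.24, adjusted p = 0.999). Selp and Sele had 0 UMIs in all injured tubule cells.

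**Figure D4:**
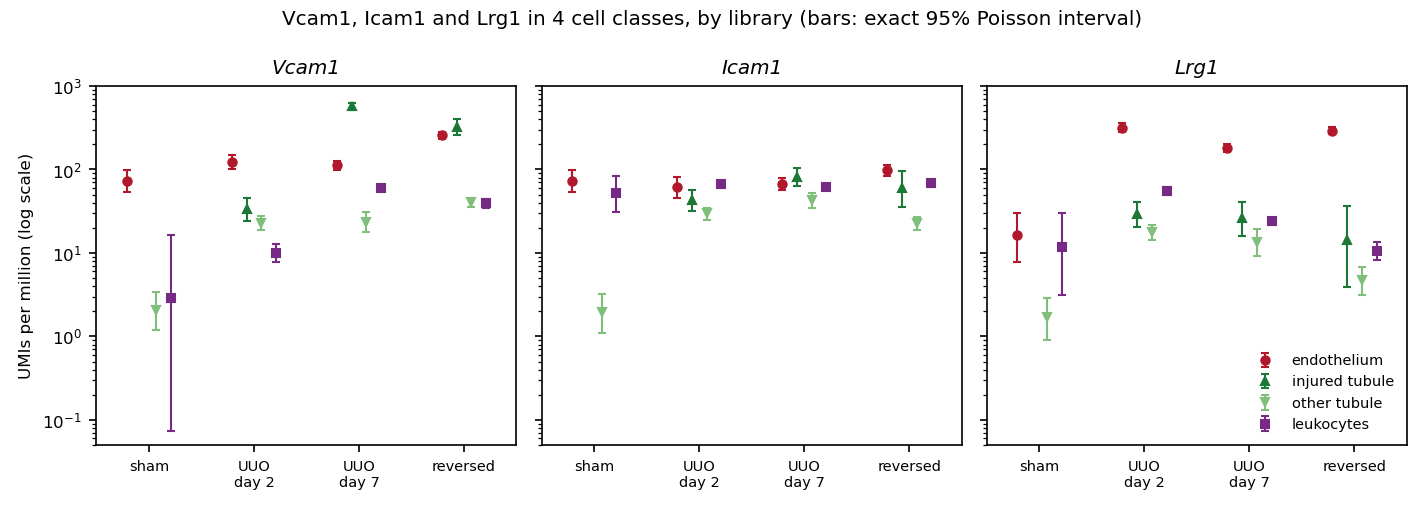
Level of Vcam1, Icam1 and Lrg1 in endothelium, injured tubule, other tubule and leukocytes of each library, on a log scale in CPM with exact 95% Poisson intervals; injured tubule of sham (3 cells) is left out. Vcam1 in the injured tubule passes the endothelium at day 7 (571 against 113), Lrg1 is above the other classes in the endothelium of the 3 later libraries, and the Icam1 intervals of endothelium and leukocytes overlap except after reversal (98.3 against 68.0).

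In leukocytes, Icam1 was at 52.4, 66.7, 62.2 and 68.0 CPM from sham to reversed, with intervals that overlapped those of the endothelium in sham, at day 2 and at day 7. Vcam1, which resident macrophages can carry, was at 2.91, 10.1, 60.6 and 39.5 CPM, below the endothelium in each library. Icam2 was at 18.2 to 22.9 CPM. Among stromal cells, which numbered 58 at day 7 and 66 after reversal, Vcam1 was at 103 and 235 CPM, with intervals that overlapped those of the endothelium. Stromal panel genes in the endothelium summed to 187 CPM at day 7 and 56.6 after reversal, and their part in endothelial Vcam1 was not tested.

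Other genes of the adhesion pathway were read from 6 lists. The counts between the gates stand beside 6.89% of all genes higher and 5.45% lower. Between the gates, the 12 genes of other adhesion and junction proteins had 9 tested, of which 4 were higher in Plvap cells and none lower, with a median log2 fold change of 0.44 against 0.00 for all genes tested. Jam2, a junctional ligand for leukocyte integrins, was at 162, 381, 249 and 215 CPM in Plvap cells and 31.6, 106, 96.0 and 54.5 in Ehd3 cells (1.84 ± 0.18, edgeR adjusted p = 5.39e-06). Cldn5, a tight junction protein, reached 1299 CPM in Plvap cells at day 2 (1.83 ± 0.32, 0.00111). Pvrl2, which encodes nectin-2, was also higher (1.33 ± 0.23, 0.00112).

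Of 14 cytokine receptor and NF-kB pathway genes tested, 2 were higher in Plvap cells, the interferon response factor Irf1 (0.79 ± 0.21, edgeR adjusted p = 0.0231, in 3 of 4 libraries) and the interferon gamma receptor chain Ifngr1 (0.70 ± 0.16, 0.0075). Of 8 Weibel-Palade body genes tested, 2 were higher: Edn1, which encodes the vasoconstrictor endothelin-1 (1.74 ± 0.43, 0.0133), and Igfbp7 (1.61 ± 0.32, 0.0034). Both were higher in 3 of 4 libraries and not after reversal, where Edn1 was at 46.4 CPM in Plvap and 54.5 in Ehd3 cells and Igfbp7 at 1287 and 1397. Of 10 TGF-beta receptor arm genes, 1 was higher and 2 lower. Smad1, a signal transducer, was higher (1.13 ± 0.20, 0.00148), whereas the inhibitor Smad6 was lower at 127, 44.8, 44.0 and 39.5 CPM against 573, 207, 246 and 250 in the Ehd3 cells (-2.33 ± 0.17, 3.33e-07); Smad6 is also one of the glomerular markers used to check the gates. Among 3 chemokine genes tested Cx3cl1, a membrane-bound chemokine, was at 14.1, 33.6, 26.4 and 24.1 CPM in Plvap cells and 130, 230, 240 and 184 in Ehd3 cells, through which it passed the filter, and the 1 leukocyte counter-receptor gene tested was not called.

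Between libraries, the same lists in the whole endothelium were described by counts, with genes named after their values were seen. Over all genes 4.39% were higher and 3.6% lower at day 2 than in sham, and 1.36% and 1.34% after reversal than at day 7. Of 18 cytokine receptor and NF-kB genes, 5 were higher at day 2 than in sham (Osmr, Socs3, Traf1, Stat3 and Nfkbiz) and none lower, with a median log2 ratio of 0.37 against -0.03 over all genes. Socs3, a feedback inhibitor of cytokine receptors that act through STAT3, was at 58.7, 189, 181 and 242 CPM from sham to reversed, and Nfkbiz, an NF-kB cofactor, at 3.26, 12.0, 42.2 and 51.6. Between day 7 and reversal, where the selectins and Vcam1 were higher, none of these 19 genes was called in either direction, with a median of -0.04 against 0.02. None of 11 Weibel-Palade body genes was called there either (median 0.05), and none of 10 adhesion and junction genes (median -0.05). At the 1.36% and 1.34% of all genes called there, lists of this length would hold few or no calls. At day 2, 3 of 11 Weibel-Palade body genes were higher than in sham (Angpt2, Igfbp7 and Edn1). So were 3 of 10 adhesion and junction genes (Mcam, Jam2 and Cldn5), and no gene of either list was lower. The arterial markers moved between these libraries too, and their part was not tested.

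Chemokine genes in the endothelium were higher at day 2 for 4 of 7 (Ccl2, Cxcl2, Ccl5 and Cxcl12), with a median log2 ratio of 1.07 against -0.03 over all genes. At day 7 4 of 10 were higher than at day 2 (Cxcl9, Ccl5, Ccl7 and Cxcl10) and 1 lower (Ccl2), where 3.87% and 2.11% of all genes were. After reversal 1 of 10 was higher than at day 7, the neutrophil chemokine Cxcl1, and 2 were lower, the monocyte chemokines Ccl2 and Ccl7. Against sham 5 of 9 were higher after reversal, Ccl2 and Ccl7 among them, and none was lower, where 6.23% and 1.97% of all genes were. Cxcl1 was at 1.63, 4.81, 2.81 and 12.1 CPM in the endothelium, and at 75.1, 71.7 and 28.5 CPM in the injured tubule from day 2 on, where it was higher than in other tubule cells (2.06 ± 0.22, edgeR adjusted p = 0.00753). Of the leukocyte counter-receptor genes, 3 of 5 were higher at day 2 (Itga4, Selplg and Itgb2) and 3 of 10 lower after reversal than at day 7 (Itgax, Cd44 and Itga4), with medians of 1.77 and -0.70 against -0.03 and 0.02 over all genes. Leukocyte panel genes in the same endothelial cells moved the same way, from 63.6 CPM in sham to 334 at day 2, and from 689 at day 7 to 320 after reversal; their part in these counts was not tested.

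The genes whose pattern was most like each member were ranked by Pearson's r of log2(CPM + 5) over 26 sums of a library and a cell class, among 13744 genes. The sums share libraries and depth, so r is a description. Cells with both gate genes were not among the sums, though after reversal they held 68 of 114 endothelial Selp UMIs and 16 of 37 Sele UMIs. In the Plvap sums Selp was at 77.3 CPM and Sele at 32.7 after reversal, against 18.9 and 3.77 at day 7, so r of this pair rests on few sums. Selp and Sele were each other's nearest gene (r = 0.906), followed by Lhx6 (0.820) and Slco1a4 (0.805) for Selp, and by Gm26624 (0.859) and Slco1a4 (0.811) for Sele. Icam2 lay closest to the endothelial genes Myct1 (0.979), Arhgef15 (0.972) and Fam117b (0.968). Lrg1 lay closest to Vsig2 (0.864), Vash1 (0.861) and Arhgap27 (0.833), and Vwf to Cd93 (0.825), Igfbp3 (0.809) and Gbp3 (0.806). Vcam1 was nearest to Tgm2 (0.743), Pnrc1 (0.732) and Socs2 (0.724). Genes close to Icam1 included Trp53 (0.797) and Ifrd1 (0.772). Apart from the selectin pair, no member was among the 3 nearest of another.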

How the data were processed

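Droplet 3′ libraries of 4 groups were used, and the Smart-seq2 sample of the series was not analysed here. Raw UMI counts, as deposited by the authors, were the start; Cell Ranger and STAR with GRCm38 (mm10) are named in the submitters' processing notes, without versions. Identifiers with the same symbol were summed. Cells under 200 detected genes or above 50% mitochondrial content were dropped, and the highest Scrublet scores (scanpy 1.11.5) were removed at 0.8% per 1000 deposited cells, because the automatic threshold marked 0 to 24 cells. A cell took the class of the marker panel with at least 3 detected genes (2 for tubule) and 2 more than any other panel. UMIs were summed per library and class and divided by the class total (CPM). Folds carry exact conditional binomial intervals. Each value after ± is the standard error implied by the F statistic of the quasi-likelihood test. The class contrasts used edgeR 4.0.16 (filterByExpr, TMM, quasi-likelihood, threshold 0.05; R 4.3.3) on sums of at least 10 cells and were tested on simulated data: for Plvap against Ehd3 cells 47.7% of 88 genes changed by 1 log2 unit and 100% of 107 changed by 2 were recovered, among 5231 genes. For cells with neither gate gene against Plvap cells it was 57.9% of 95 and 99.0% of 98, among 2355; for injured against other tubule 28.9% of 90 and 92.5% of 106, among 9937; and for endothelium against injured tubule 25.8% of 89 and 99.0% of 102, among 8954. DESeq2 1.42.0 was an alternative. The members and gene lists were chosen with earlier results of these data known. Named list genes are, per list and test, at most the 3 largest passing genes in each direction; Nectin2 is listed as Pvrl2, and Cd99 is not among the symbols. One gene among the nearest patterns is not reported here.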

Additional observations from a re-analysis of the deposited data

Results flagged for a closer look

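Vcam1 moved in opposite directions between day 7 and reversal in 2 cell classes. In the endothelium the log2 ratio of reversed over day 7 was 1.16 (0.94 to 1.38), from 113 to 258 CPM. That ratio was 0.57 in thinned cells and 0.90 with each cell weighted equally, both short of a call. In the injured tubule it was -0.81 (-1.14 to -0.48), from 571 to 324 CPM. Each class is 1 library per time point, so the difference was not tested between libraries, and the injured level after reversal rests on 12 positive cells of 29, of which 3 held 70.3% of the UMIs. In the other tubule cells Vcam1 went from 23.5 to 40.7 CPM.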

How the results depend on the processing

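No paired analysis was possible because each time point has 1 library; the class contrasts already carry library as a block. Of 999 alternative values of 91 ratios between libraries, 937 stayed within the counting interval of the reported value, 61 lay outside it, and 1 turned a called ratio. In all 48 changed sign, 6 of them beyond the interval or from a called value: in thinned cells Icam1 in the endothelium after reversal (-0.22 against 0.51 over day 7, -0.10 against 0.40 over sham), Icam2 there over day 7 (0.33 against 0.00), and in Ehd3 cells Vcam1 (-0.49 against a called 1.16, from 14 and 6 UMIs) and Vwf (-1.38 against 0.18); and, without doublet removal, Vcam1 in Ehd3 cells at day 7 over day 2 (1.07 against -0.71). The number of members called in the endothelium varied with the setting. At day 2 over sham it was 1 with a pseudocount of 20 CPM (Vwf 0.82) and 3 with genes of at least 1 UMI, without doublet removal (Vcam1 1.07) and in thinned cells (Vcam1 1.46), against 2. At day 7 over day 2 it was 1 with a pseudocount of 1 CPM, 2 with cells weighted equally and 1 in thinned cells, against 0. After reversal over day 7 it was 2 with a pseudocount of 20 CPM (Sele 0.71), 2 with cells weighted equally (Vcam1 0.90) and 1 in thinned cells, against 3. After reversal over sham it was 3 with a pseudocount of 20 CPM (Sele 0.90) and 5 with a pseudocount of 1 CPM (Vwf 1.37), with cells weighted equally (Vwf 1.29) and in thinned cells (Vwf 1.16), against 4. Of 197 alternatives to 17 fold changes of the class contrasts, 9 lost the call and 8 gained one. This tally includes the members described above by values alone, whose calls are not used. Plvap against Ehd3 cells called 677 genes, against 375 with DESeq2, 1030 with no filter, 371 without the block and 393 to 801 leaving out each library. Neither gate against Plvap called 166, against 63, 321, 5 and 65 to 181. Injured against other tubule called 156, against 722 with no filter, 2 without the block, 366 with a mitochondrial limit of 20%, 73 with a stricter class threshold and 22 to 307 leaving out each library. Endothelium against injured tubule called 4275, and 3289 to 4172 leaving out each library. The causes were not tested. With 29 to 114 injured cells and 1 library per time point, only large differences can be seen.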
